A study of Mus musculus with 3 samples.

Results

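The miR-106b~25 cluster is a set of 3 microRNA (miRNA) hairpins, miR-106b, miR-93 and miR-25, that lie together in the mouse gene Mcm7. Its 6 mature arms, mmu-miR-106b-5p, mmu-miR-106b-3p, mmu-miR-93-5p, mmu-miR-93-3p, mmu-miR-25-3p and mmu-miR-25-5p, written below without the species prefix, were chosen by name from a table of 1915 mature mouse miRNAs, by no threshold on measured values, although earlier results of these data were known when the cluster was chosen, and all 6 had counts in every library. The libraries are of small RNA from exosomes, the small vesicles that cells release, of bone-marrow-derived macrophages of adult wild-type C57BL/6 mice. Marrow cells were given 24 h of M-CSF, the cytokine on which macrophages depend, before a change to exosome-depleted serum, and the vesicles shed over 72 h were pelleted by ultracentrifugation. The aim, as the submitters put it, was the miRNA profile of these exosomes. There was 1 group of 3 libraries, called libraries 1 to 3 here, with no treatment and no library of the parent cells. No label ties the libraries to separate animals or cultures, so every spread and p-value below measures these libraries, and their differences may be technical. In pelleted bulk RNA, fewer vesicles that carry a miRNA and fewer copies in each vesicle cannot be told apart.

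The libraries held between 2489984 and 3208617 miRNA counts. Levels are counts per 1000000 miRNA counts (CPM). A miRNA without counts could still be present at up to 3 counts, or 0.935 to 1.20 CPM. Library 1 stood apart from the others in some of its marker miRNAs. All 9 myeloid markers examined had at least 10 counts in every library, and together they took 8.33%, 39.2% and 38.5% of counts in libraries 1, 2 and 3. Most of that sum was miR-21a-5p, at 37316, 305278 and 261488 CPM, and miR-146b-5p, at 6950, 41809 and 81688 CPM. Lower in library 1 as well were miR-142a-3p, at 42.9, 1364 and 819 CPM, miR-155-5p, at 74.8, 2388 and 829 CPM, and miR-142a-5p, at 292, 818 and 390 CPM. The list did not move as one, since miR-146a-5p was at 33401, 35012 and 36543 CPM and miR-342-3p was highest in library 1. MiR-22-3p was at 5046, 5088 and 3602 CPM, and miR-223-3p at 35.6, 52.6 and 33.0 CPM. The 5 erythroid markers summed to 90.4, 28.1 and 15.6 CPM with miR-486a-5p and miR-486b-5p, whose counts were identical, counted once, and miR-144-3p and miR-144-5p among them were at 0 in library 3. Endothelial, stromal, epithelial, liver and lymphoid lists took 0.00252% to 0.212% of counts per list and library. The epithelial sum was lowest in library 1, at 88.1, 464 and 289 CPM in libraries 1, 2 and 3. The lymphoid sum, at 2116, 1386 and 639 CPM, and the stromal sum, at 314, 201 and 274 CPM, were highest there. For the endothelial and liver lists library 1 lay between the others. The part of these markers in the differences between libraries was not tested.

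Mcm7, the host gene, encodes a subunit of the helicase that unwinds DNA at replication, and it is transcribed in proliferating cells under the control of E2F factors. The cluster is a paralogue of the miR-17~92 cluster. A miRNA recognises its targets mainly through its seed, bases 2 to 8. MiR-106b-5p and miR-93-5p carry the seed of miR-17-5p and miR-20a-5p, and miR-25-3p carries that of miR-92a-3p. Known targets of the miR-17 seed include the cell-cycle inhibitor Cdkn1a, and miR-25-3p and miR-92a-3p repress the pro-apoptotic gene Bcl2l11. Of each hairpin, 1 arm is usually kept in Argonaute as the guide and the other is degraded.

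The mature sequences are shown because they place the 6 arms in seed families, with the seed in capitals. They are RefSeq sequences of the GRCm38.p6 build, which matched all 6 arms and 1623 of the 1915 names in the table.
miR-106b-5p: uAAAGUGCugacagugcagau
miR-93-5p: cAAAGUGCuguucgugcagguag
miR-25-3p: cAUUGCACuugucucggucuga
miR-106b-3p: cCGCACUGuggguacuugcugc
miR-93-3p: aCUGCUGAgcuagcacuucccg
miR-25-5p: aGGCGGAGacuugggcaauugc
The seed AAAGUGC of miR-106b-5p and miR-93-5p was shared with 5 other matched miRNAs, and the seed AUUGCAC of miR-25-3p with 5. No other matched miRNA carried the seeds of miR-106b-3p, miR-93-3p or miR-25-5p. The relatives that mattered most for the family totals were the following, with the seed again in capitals.
miR-17-5p: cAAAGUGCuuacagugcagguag
miR-20a-5p: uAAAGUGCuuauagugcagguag
miR-92a-3p: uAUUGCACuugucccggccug
miR-32-5p: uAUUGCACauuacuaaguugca
MiR-93-5p was 3 edits (substitutions, insertions or deletions) away from miR-17-5p, 4 from miR-20a-5p and 7 from its cluster mate miR-106b-5p. MiR-25-3p was 4 edits from miR-92a-3p, with a longest shared run of 12 bases, and 8 from miR-32-5p. The sources used here do not say how reads that match several miRNAs were assigned.

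The 3 hairpins span 498 bases of the minus strand of chromosome 5 in GRCm38 (mm10), from 138165321 to 138165818. In the Mcm7 transcript of 15 exons that GENCODE M21 annotates, all of them lie in intron 13, which is 748 bases long. In another protein-coding Mcm7 transcript, of 9 exons, all of them lie in intron 8, which is 3154 bases long. MiR-106b comes first in the direction of transcription, then miR-93, and miR-25 follows 118 bases after miR-93. The hairpins of miR-93 and miR-25, but not that of miR-106b, also lie within exon 1 of a shorter Mcm7 transcript annotated as a retained intron. The hairpins are shown because the arm ratios below compare their 2 sides, and the capitals mark the 5p arm and then the 3p arm.
Mir106b, chr5:138165737-138165818, minus strand: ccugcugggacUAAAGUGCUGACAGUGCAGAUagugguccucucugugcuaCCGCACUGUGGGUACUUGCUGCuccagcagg
Mir93, chr5:138165523-138165610, minus strand: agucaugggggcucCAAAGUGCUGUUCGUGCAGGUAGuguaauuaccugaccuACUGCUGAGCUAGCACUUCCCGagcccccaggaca
Mir25, chr5:138165321-138165404, minus strand: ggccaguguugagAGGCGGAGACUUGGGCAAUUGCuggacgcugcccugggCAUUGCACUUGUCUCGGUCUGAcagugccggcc

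MiR-25-3p made up most of the cluster's counts in every library, and miR-106b-3p, the arm that is usually taken for the passenger, outnumbered miR-106b-5p in all 3. The 6 arms together took 3.82% of miRNA counts in library 1 (Wilson 95% interval 3.79 to 3.84), 0.862% in library 2 (0.850 to 0.873) and 0.723% in library 3 (0.714 to 0.733). These intervals cover counting error only. The mean was 1.80% ± 1.75 (SD, n = 3), and 0.793% without library 1, so the average over libraries rests largely on library 1.

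MiR-25-3p, the guide arm of the last hairpin, was at 31984, 6108 and 5257 CPM in libraries 1, 2 and 3, which placed it at rank 12, 24 and 28 of all miRNAs. Its mean was 14450 ± 15191 CPM (SD, n = 3), and 5683 CPM without library 1. It held 83.8%, 70.9% and 72.7% of the cluster's counts in libraries 1, 2 and 3. Library 1 was far above the others, which lay close to each other.

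MiR-93-5p, the guide arm of the middle hairpin, was at 4825, 1606 and 658 CPM in libraries 1, 2 and 3. Its mean was 2363 ± 2184 CPM (SD, n = 3), and 1132 CPM without library 1. Unlike for miR-25-3p, libraries 2 and 3 lay well apart. MiR-93-5p held 12.6%, 18.6% and 9.09% of the cluster's counts.

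The arms of miR-106b differed in their order of libraries. MiR-106b-5p was at 292 CPM in library 1, 200 CPM in library 2 and 73.6 CPM in library 3, and its mean was 188 ± 110 CPM (SD, n = 3). MiR-106b-3p was at 993 CPM in library 1, 694 CPM in library 2 and 1233 CPM in library 3, averaging 973 ± 270 CPM (SD, n = 3), with its highest level in library 3. MiR-106b-3p held 2.60%, 8.05% and 17.04% of the cluster's counts in libraries 1, 2 and 3. Its coefficient of variation was 27.7%, against 58.1% for miR-106b-5p and 92.4% to 105% for the other 4 arms. The order of the 2 arms of miR-106b depends on the scaling, since with TMM factors, which equalise the bulk of the miRNAs between libraries, miR-106b-3p had 49.0% and miR-106b-5p 39.2%, and with DESeq2 size factors 48.9% and 39.4%.

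The minor arms of the other hairpins were rare. MiR-25-5p had 105, 11 and 26 counts, or 34.9, 4.42 and 8.10 CPM, with a mean of 15.8 ± 16.6 CPM (SD, n = 3) and of 6.26 CPM without library 1. MiR-93-3p had 69, 14 and 13 counts, or 22.9, 5.62 and 4.05 CPM, with a mean of 10.9 ± 10.5 CPM (SD, n = 3) and of 4.84 CPM without library 1. All of these counts were above the floor of 3.

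**Figure D1:**
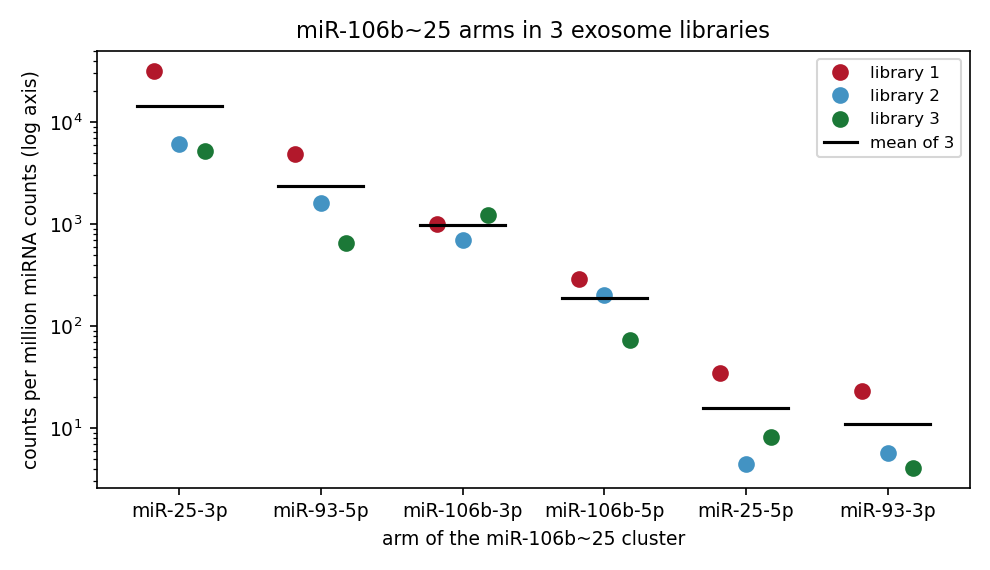
Level of each of the 6 arms in counts per 1000000 miRNA counts (log axis), with 1 point for each library and a black line at the mean of the 3. MiR-25-3p is highest in every library, and miR-106b-3p is the arm whose highest value, 1233 CPM, is in library 3.

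The order of the levels was the same in all libraries at its top, and 2 pairs of neighbours did not keep theirs. MiR-25-3p exceeded miR-93-5p 6.63-fold, 3.802-fold and 7.99-fold in libraries 1, 2 and 3. MiR-93-5p exceeded miR-106b-3p 4.86-fold and 2.31-fold in libraries 1 and 2, but in library 3 the ratio was 0.533, with miR-106b-3p the higher. MiR-93-5p exceeded miR-106b-5p, which shares its seed, 16.5-fold, 8.03-fold and 8.94-fold. MiR-25-5p and miR-93-3p, the lowest arms, exchanged places in library 2, but there on only 11 and 14 counts, too few to establish an order. These ratios compare arms within a library, so they do not depend on how libraries are scaled, although ligation and amplification can favour some sequences over others.

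The hairpins differed in which arm was counted and in how one-sided the choice was. The ratio of 5p to 3p counts was tested in all 157 precursors that had both arms in the table and a summed count of at least 60, by edgeR's quasi-likelihood test with library as a term and Benjamini-Hochberg adjustment. The variance was pooled over the precursors tested. The p-value of a hairpin thus sets its ratio against a spread shared by the precursors. It does not rest on the SD of the hairpin's own libraries, which is given beside it below. Of the 157 precursors, 41.4% had more 5p and 38.9% had more 3p at an adjusted p below 0.05. All 3 hairpins of the cluster passed, which 80.3% of the precursors did. MiR-93 had more 5p, and miR-25 and miR-106b had more 3p.

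For miR-25 the 3p arm took 99.9% of the hairpin's counts in libraries 1 and 2 and 99.8% in library 3. The 3p counts were 917, 1383 and 649 times the 5p counts, with exact 95% counting intervals of 757 to 1121, 772 to 2770 and 443 to 994. The log2 ratio of 5p to 3p was -9.87 ± 0.55 over the libraries (SD, n = 3), and edgeR's adjusted p was 4.7e-17. In order of the fitted ratio 15 of the 157 precursors lay further to the 3p side than miR-25, which stood between miR-328, with 8 and 4064 summed counts of the 5p and 3p arms, and miR-652, with 4 and 3981. The next places out were those of miR-203 (0 and 238 counts) and miR-1964 (1 and 1542 counts). Some precursors further to the 3p side, such as miR-320, had no 5p counts, so their places depend on depth.

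For miR-93 the preference was the opposite, with 99.5%, 99.7% and 99.4% of counts on the 5p arm. The 5p counts were 210.4, 286 and 162 times the 3p counts, with exact 95% counting intervals of 166 to 271, 170.1 to 523 and 94.7 to 305. The log2 ratio was 7.74 ± 0.41 (SD, n = 3), and edgeR's adjusted p was 4.9e-11. In the order of fitted ratios 34 precursors lay further to the 5p side than miR-93, which stood between miR-34a (616 and 2 summed counts of the 5p and 3p arms) and miR-10a (89478 and 546 counts). Beyond these came miR-1947 and miR-106a, a paralogue of miR-106b on the X chromosome, both with no 3p counts. Some precursors further to the 5p side, such as miR-122, also had no 3p counts, so their places depend on depth.

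For miR-106b both arms were well counted and the 3p arm was the larger. There were 878, 498 and 236 counts of the 5p arm and 2989, 1728 and 3956 of the 3p arm in libraries 1, 2 and 3. The 3p arm thus took 77.3%, 77.6% and 94.4% of the hairpin's counts. Its counts were 3.40 times those of the 5p arm in library 1 (exact 95% counting interval 3.16 to 3.67), 3.47 times in library 2 (3.14 to 3.84) and 16.8 times in library 3 (14.7 to 19.2). The log2 ratio of 5p to 3p was -2.54 ± 1.32 (SD, n = 3), and edgeR's adjusted p was 0.010. That call was lost without library 2 (adjusted p = 0.088) and without library 3 (adjusted p = 0.19), although the 3p arm was the larger in each library. MiR-106b stood at place 98 of 157, with miR-29c (42 and 161 summed counts of the 5p and 3p arms) and miR-674 (1135 and 8974) before it, and miR-200a (31 and 165) and miR-3068 (158 and 665) after it.

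**Figure D2:**
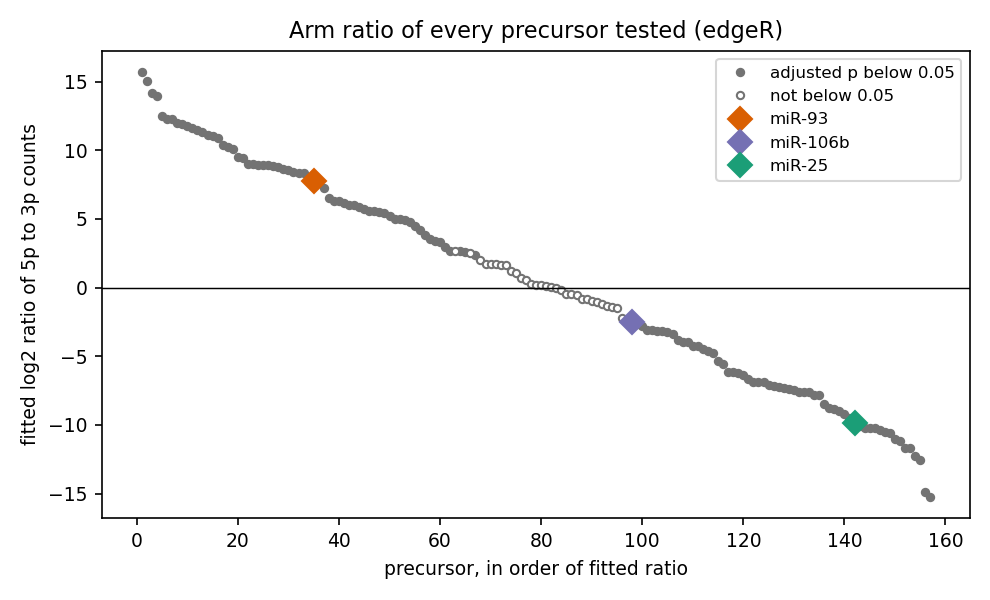
Fitted log2 ratio of 5p to 3p counts (vertical axis) for each of the 157 precursors tested, in falling order, with filled points for an adjusted p below 0.05 and diamonds for the 3 hairpins of the cluster. MiR-93 lies on the 5p side and miR-25 far on the 3p side, while miR-106b lies nearer to the middle on the 3p side, at place 98.

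The arm ratio of miR-106b in library 3 differed from that in libraries 1 and 2, which were alike at 3.40 and 3.47 counts of 3p for each of 5p. A chi-square test of the 2 arms against the 3 libraries, made for the 81 precursors with an expected count of at least 5 in each cell, found that 93.8% differed among libraries beyond counting error at an adjusted p below 0.05. MiR-106b was among them (adjusted p = 5.1e-117), but without library 3 its adjusted p was 0.78. Without library 1 the test called 43 of 84 precursors. MiR-93 (adjusted p = 0.34) and miR-25 (adjusted p = 0.090) were not, where the minor arms gave smallest expected counts of 9.83 and 16.8. The range of the log2 arm ratio over the libraries was 2.30 for miR-106b, close to the median of 2.31 over the 157 precursors. It was 0.82 for miR-93 and 1.05 for miR-25, smaller than in most precursors. The 157 precursors include some with few or no counts of an arm, whose range holds more counting error than that of miR-106b. These ranges thus compare precursors of unlike precision. The test compares these libraries with counting error and says nothing of conditions.

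MiR-25-3p, miR-93-5p and the minor arms of their hairpins were higher in library 1 than in either other library. Both arms of miR-106b differed less between libraries 1 and 2. MiR-25-3p was 5.24-fold and 6.08-fold higher in library 1 than in libraries 2 and 3, and miR-93-5p 3.003-fold and 7.34-fold. MiR-93-3p was 4.08-fold and 5.66-fold higher there, and miR-25-5p 7.90-fold and 4.31-fold. MiR-106b-5p was 1.46-fold higher in library 1 than in library 2 and 3.97-fold higher than in library 3. MiR-106b-3p was 1.43-fold higher in library 1 than in library 2 and stood at 0.806 times its level in library 3.

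These directions hold for scaling to the miRNA totals, and some depend on it. For the 134 miRNAs averaging 100 CPM or more, the median log2 ratio of library 1 to library 2 was 0.62, that of library 1 to library 3 was 0.96 and that of library 2 to library 3 was 0.16. TMM factors moved all log2 ratios by -0.61, -0.86 and -0.25 for these pairs. With them the log2 ratio of library 1 to library 2 turned from 0.54 to -0.069 for miR-106b-5p and from 0.52 to -0.097 for miR-106b-3p, so no direction can be given for either. For miR-25-3p the log2 ratio of library 2 to library 3 turned from 0.22 to -0.032. The higher levels of miR-25-3p and miR-93-5p in library 1 kept their direction with TMM factors, DESeq2 size factors and the authors' RPM, the lowest log2 ratios to either library being 1.73 for miR-25-3p and 0.93 for miR-93-5p.

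For the 4 arms averaging 100 CPM or more, the shares were read against all 134 such miRNAs. MiR-25-3p and miR-93-5p were more than 2-fold higher in library 1 than in library 2, as were 35.8% of the 134. Library 1 exceeded library 3 more than 2-fold for 3 of the 4, all but miR-106b-3p, and for 47.8% of the 134. Library 2 exceeded library 3 more than 2-fold for miR-93-5p (2.44-fold) and miR-106b-5p (2.72-fold), and for 19.4% of the 134. A highest level in library 3, as miR-106b-3p had, was also found in 19.4%. With 4 arms these counts do not set the cluster apart. The chi-square test of the 3 counts of each miRNA against the library totals called all 6 arms, at adjusted p of 2.2e-13 for miR-93-3p and lower for the others, beside 90.1% of the 353 miRNAs tested. Without library 1 it called 177 of 288 miRNAs, among them the 4 more abundant arms, while miR-25-5p had an adjusted p of 0.13, and miR-93-3p had too few counts to be tested.

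**Figure D3:**
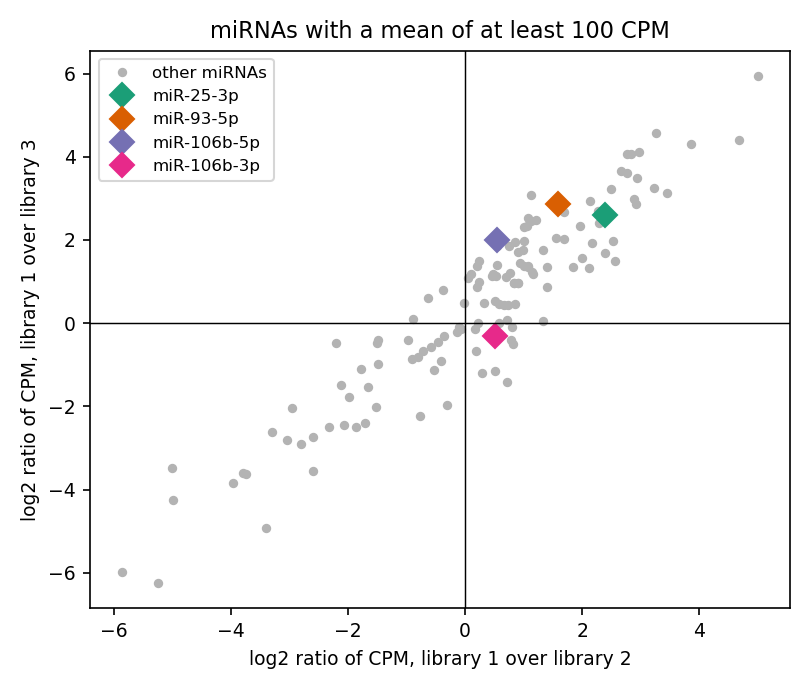
Log2 ratio of CPM of library 1 over library 2 (horizontal axis) and over library 3 (vertical axis) for the 134 miRNAs averaging 100 CPM or more, scaled to miRNA totals, with diamonds for the 4 abundant arms of the cluster. MiR-25-3p and miR-93-5p lie well inside the upper right, where library 1 is the highest, and miR-106b-3p lies below the horizontal line at -0.31.

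In its seed families the cluster gave 15.0% to 19.3% of the counts with the miR-17 seed and 26.0% to 45.0% of those with the miR-25 seed. All miRNAs with the seed AAAGUGC together took 2.65%, 1.20% and 0.479% of miRNA counts in libraries 1, 2 and 3. Within this total miR-93-5p and miR-106b-5p held 19.3% (Wilson 95% interval 19.1 to 19.6), 15.0% (14.6 to 15.4) and 15.3% (14.7 to 15.9). The mean was 16.5% ± 2.43 (SD, n = 3), of which miR-93-5p made up 15.1% ± 2.72 and miR-106b-5p 1.43% ± 0.293.

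The rest of that family came mostly from miR-17~92. MiR-20a-5p held 59.9% ± 2.58 and miR-17-5p 23.4% ± 1.06 of its counts (SD, n = 3 each). MiR-20b-5p, at 0.148% ± 0.0158, and miR-106a-5p, at 0.0430% ± 0.0147, both from the X-linked cluster that joins miR-106a and miR-363, were rare (SD, n = 3 each). MiR-6383 had no counts. The family's total was 5.53-fold higher in library 1 than in library 3, while the share of each of its main members varied with an SD of at most 2.72 percentage points.

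The seed AUUGCAC took 7.42%, 1.36% and 2.02% of miRNA counts in libraries 1, 2 and 3. MiR-25-3p held 43.1% of this family in library 1 (Wilson 95% interval 42.9 to 43.3), 45.0% in library 2 (44.5 to 45.5) and 26.0% in library 3 (25.7 to 26.4), a mean of 38.0% ± 10.4 (SD, n = 3). MiR-92a-3p, whose sequence is encoded in miR-17~92 and again in the X-linked cluster, held 56.0%, 52.3% and 72.6%. MiR-92a-3p was 1.30, 1.16 and 2.79 times as abundant as miR-25-3p. It was at 41594, 7098 and 14669 CPM, so that library 3 lay above library 2 for miR-92a-3p while miR-25-3p was at 6108 CPM in library 2 and 5257 CPM in library 3.

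The other members of the miR-25 seed family were minor. MiR-32-5p held 0.618%, 2.45% and 1.04% of its counts in libraries 1, 2 and 3, and miR-92b-3p 0.289% ± 0.0191 (SD, n = 3). MiR-363-3p had 2, 1 and 2 counts, and miR-367-3p, known from stem cells, had none.

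**Figure D4:**
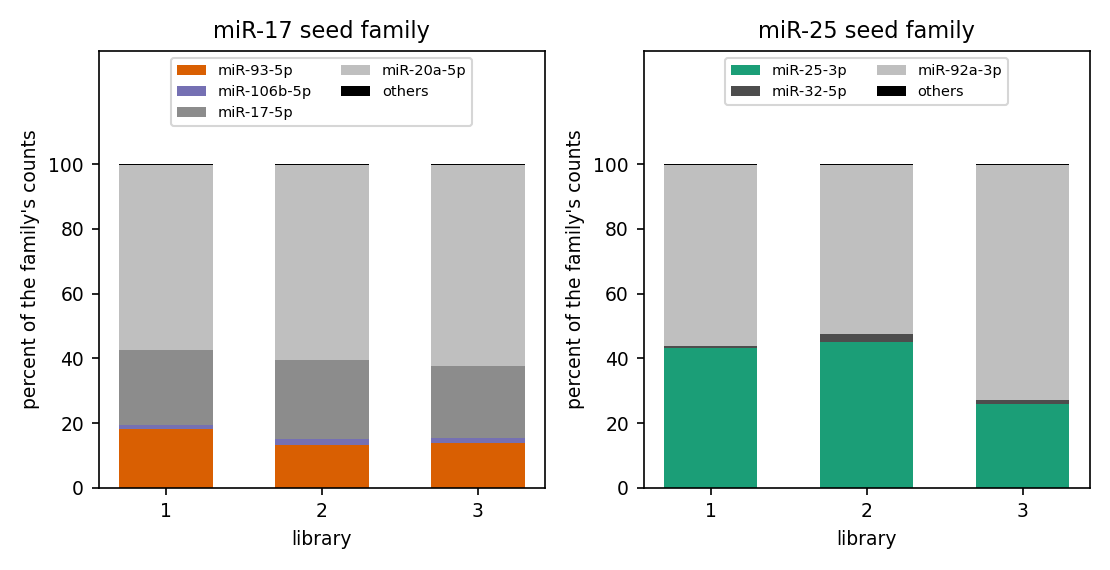
Percent of the counts of a seed family (vertical axis) held by each of its members in libraries 1 to 3, for the family of miR-17-5p on the left and that of miR-25-3p on the right, with arms of the cluster in colour. MiR-93-5p and miR-106b-5p together hold 15.0% to 19.3% on the left, and miR-25-3p holds 26.0% to 45.0% on the right.

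Beside its paralogues the cluster stood between miR-17~92 and the X-linked cluster that joins miR-106a and miR-363, which had few counts in the arms it does not share. The 12 arms listed for miR-17~92 took 6.43%, 2.04% and 2.02% of counts in libraries 1, 2 and 3, and the miR-106b~25 sum was 59.3%, 42.3% and 35.8% of theirs. The mean of this proportion was 45.8% ± 12.1 (SD, n = 3). MiR-19b-3p and miR-92a-3p, which the X-linked cluster also encodes, were counted wholly for miR-17~92, and the proportion rests on that. MiR-92a-3p alone had 125155 of the 193548 miR-17~92 counts in library 1, 17675 of 50731 in library 2 and 47067 of 64855 in library 3. Of the 10 arms of the X-linked cluster that are not shared with miR-17~92, miR-20b-5p was at 41.9, 18.9 and 6.23 CPM, and in counts miR-106a-5p had 42, 15 and 4 and miR-363-3p 2, 1 and 2, while the other 7 had none. The sum over miR-106b~25 was 4.43-fold and 5.27-fold higher in library 1 than in libraries 2 and 3, and that over miR-17~92 was 3.16-fold and 3.18-fold higher. The difference between the clusters was not tested, since each fold compares 1 library with 1 other.

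The profiles of the abundant arms over the 3 libraries were compared with those of the other 133 miRNAs averaging 100 CPM or more. Likeness was the Euclidean distance between log2(CPM + 1) values, each centred on its own mean, and scaling factors move all profiles alike and so hardly change it. Nearest to miR-25-3p were miR-345-3p (distance 0.079), miR-125b-2-3p (0.14), let-7d-3p (0.15), miR-24-3p (0.31) and miR-27a-5p (0.36). Nearest to miR-93-5p were miR-181b-5p (0.21), miR-152-3p (0.32), miR-17-5p (0.37), miR-674-5p (0.37) and miR-140-3p (0.41).

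For miR-106b the 2 arms had different neighbours. Nearest to miR-106b-5p were miR-542-3p (distance 0.11), miR-185-5p (0.23), miR-30a-5p (0.26), miR-30e-5p (0.34) and miR-191-5p (0.35). Nearest to miR-106b-3p were miR-361-3p (0.21), miR-99b-3p (0.24), miR-10a-5p (0.27), miR-744-5p (0.27) and miR-183-5p (0.27). The sum of the cluster, which is mostly miR-25-3p and so no separate profile, was compared with the 130 such miRNAs outside the cluster. Its nearest were miR-125b-2-3p (0.11), miR-24-3p (0.13), miR-345-3p (0.14), let-7d-3p (0.21) and miR-30d-5p (0.35). With 3 libraries a profile has few ways to differ, so a small distance is a description and no more.

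By this measure the arms with the miR-17 seed lay closer to their relatives in miR-17~92 than to their own cluster mates. From miR-93-5p, miR-17-5p was at place 3 and miR-20a-5p at place 6 of 133, while miR-25-3p was at place 18, miR-106b-5p at 20 and miR-106b-3p at 89. From miR-106b-5p, miR-20a-5p was at place 6 and miR-17-5p at 11, while miR-93-5p was at 28, miR-25-3p at 53 and miR-106b-3p, from the other side of the same hairpin, at 85. From miR-25-3p, miR-92b-3p was at place 18, miR-93-5p at 21 and miR-92a-3p at 27. The distances were not tested.

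The base composition of a miRNA moved with its ratio between libraries. Over the 119 of 134 abundant miRNAs with a matched sequence, the GC content had a Spearman rho of 0.56 with the log2 ratio of library 1 to 2, of 0.49 with that of library 1 to 3 and of -0.041 with that of library 2 to 3. These points share libraries and depth and are not independent. The arms of the cluster had 42.9% (miR-106b-5p), 50.0% (miR-25-3p), 52.2% (miR-93-5p) and 63.6% (miR-106b-3p) GC, against a median of 45.8%. MiR-106b-3p, the richest in GC of the 4, had the lowest ratio of library 1 to library 3, at 0.806. Its ratio of library 1 to library 2, 1.43, was close to the 1.46 of miR-106b-5p, the poorest in GC. The part of base composition in the levels of these arms was not tested.

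The larger arm of all 3 hairpins starts with C. Among the 132 of 157 precursors with both sequences matched, the larger arm by summed counts started with U in 51.5%, A in 22.7%, C in 21.2% and G in 4.55%. The smaller arm started with U in 17.4%. MiR-106b, where the smaller 5p arm starts with U and the larger 3p arm does not, was 1 of 13 such precursors (9.85%).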

How the data were processed

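Small RNA libraries of 3 exosome samples were analysed as 1 group. Per the labels' protocols, adapters were ligated, libraries amplified and size-selected on a gel, and single-end reads of 50 bases sequenced. No molecular identifiers are mentioned, so counts are of PCR products. The submitters' processing notes name bcl2fastq, BWA and mm10. The sources used here give no trimming, mismatch limits or miRNA release. The authors deposited a whole-number count for each mature miRNA, used in every test. They also deposited a normalized value, RPM, which the values show to be the count per 1000000 of a denominator of 13995845 to 14047692, of which miRNA counts are 17.8% to 22.9%. Its other contents are not given, so counts were scaled to miRNA totals, and RPM was an alternative.

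The arm test used edgeR 4.0.16 with DESeq2 1.42.0 and limma 3.58.1 as alternatives, all after a summed count of at least 60. The chi-square test of counts among libraries used a summed count of at least 30. Both were also run on simulated data, whose outcome is not given here. The simulation for the arm test used a set spread between libraries, not one estimated from these data, so it does not measure the error rate here. The chi-square test of arms against libraries was added after the data were seen. Other alternatives were TMM factors, DESeq2 size factors, other count minimums and leaving out each library. The members and lists were chosen with earlier results of these data known. The text names all members, relatives of the same seed, the 5 miRNAs nearest in profile to each member with a mean of at least 100 CPM, and the 2 precursors on each side of a member in the arm test. No comparison between conditions was possible with 1 group.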

Additional observations from a re-analysis of the deposited data

How the results depend on the processing

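The authors' RPM, with its larger denominator, lowered every level: the mean of the cluster's sum went from 18001 CPM to 3788 RPM, that of miR-106b-5p from 188 to 38.3 and that of miR-106b-3p from 973 to 206. TMM factors and DESeq2 size factors gave 15283 and 14988 for the sum. The log2 ratio of the cluster's sum in library 1 to library 2 was 2.15, and 1.53 with TMM factors, 1.49 with DESeq2 size factors and 2.41 with the authors' RPM. For library 1 to library 3 it was 2.40, and 1.54, 1.52 and 2.30 in the same order. For library 2 to library 3 it was 0.25, and 0.0042 and 0.025, and it reversed to -0.11 with the authors' RPM. For single arms, miR-106b-5p of library 1 to 2 reversed to -0.069 with TMM factors and -0.11 with DESeq2 size factors, and miR-106b-3p to -0.097 and -0.13. MiR-25-3p of library 2 to 3 reversed to -0.032, -0.011 and -0.15 with TMM factors, DESeq2 size factors and RPM. The scaling itself, which shifts all miRNAs of a library alike, makes these changes. Only scaling was varied for the ratios between libraries.

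Leaving out 1 library gave 177 to 284 miRNAs that differed among libraries in place of 318, lowest without library 1, and 43 to 68 precursors whose arm ratio differed in place of 76, also lowest without library 1. A summed count of at least 300 gave 168 of 171 miRNAs, since fewer were tested. The arm ratios of miR-93 and miR-25 kept their direction and stayed past the threshold under all 8 alternatives to the arm test, and miR-106b under 6 of them, the exceptions being without library 2 and without library 3. Leaving out 1 library gave 0.793% to 2.34% for the cluster's mean share, lowest without library 1, in place of 1.80%. It gave 15.1% to 17.3% and 34.6% to 44.0% for the shares of the seeds AAAGUGC and AUUGCAC, 71.8% to 78.3% for miR-25-3p within the cluster and 39.0% to 50.8% for the proportion to miR-17~92. Scaling cannot move a proportion within a library, so it says nothing of the stability of these. No paired analysis was possible because there is 1 group. Depth limits miR-93-3p and miR-25-5p, with 11 to 105 counts per library.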
